A study of Rattus norvegicus with 22 samples.

Results

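The calcaneal tendon (CT) 3 days after injury of the gastrocnemius muscle (3D) was compared with the CT of rats not exposed to the injury (C). The animals were taken by their group label, 5 in 3D and 5 in C, which made 10 of the 22 rats of the series, and the mRNA levels of all 22 target genes were compared. The rats were male Wistar animals, 4 months old at the start, and the muscle of the 3D rats was injured by cryolesion, that is by a frozen metal bar held against its exposed belly. The other rats of the series, 6 at 14 days (14D) and 6 at 28 days (28D), had the same lesion. Rats of C were described as not exposed to injury and no sham operation was described, so that effects of anaesthesia, skin incision and muscle lesion cannot be told apart. The muscle was injured and the tendon was not, and RNA came from the whole CT.

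The calcaneal tendon joins the gastrocnemius to the heel and carries its force. Its matrix is mainly type I collagen, with type III collagen as a minor fibrillar partner, small proteoglycans that bind the fibrils, and proteases with their tissue inhibitors (TIMPs) that turn the matrix over. Tendon cells are marked by the transcription factors scleraxis and mohawk and by the membrane protein tenomodulin, and TGF-β signalling through SMAD proteins is known to drive their collagen synthesis.

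Each gene was read as a cycle threshold (Ct), the number of PCR cycles needed to reach a detection threshold, which is higher where there is less mRNA. Log2 expression was the Ct of the reference gene RPLP0, a ribosomal protein gene, minus the Ct of the target, centred on the mean of C, and 1 unit is a 2-fold step. A value was taken as filled in where it was an exact average of the remaining rats in the group, in Ct or ΔCt. For IL-6 in replicate 3 of 3D this held once replicate 2, itself filled in, was set aside. Of 220 deposited values in the 10 animals, 22 were left out as filled in (12 in C and 10 in 3D), and 1 was blank. This left 197 values, and 9 genes were measured in all 10 animals. The tendon markers TNMD, SCX and MKX were among the genes read in every animal, while the panel holds no defining gene of muscle, fat, endothelium or immune cells, so that a share of such cells could not be read. Replicate 2 of 3D stood apart with an RPLP0 Ct of 32.3, against 26.1 to 27.9 in the other 3D animals, and 12 of its 21 values had a Ct above 35, where a Ct is less precise. Replicate 4 of C had an RPLP0 Ct of 30.6, against 26.1 to 26.9 in the other C animals. The mean RPLP0 Ct was 28.2 ± 2.37 in 3D and 27.3 ± 1.91 in C (SD, n = 5 each), and the difference of 0.925 cycles did not pass an exact two-sided permutation test (p = 0.484). The difference was -0.09 cycles without replicate 2 of 3D, 1.77 without replicate 4 of C and 0.751 without both. In replicate 5 of 3D, 11 genes had been normalized with an RPLP0 Ct of 28.5, which is the mean of the other 3D animals, and 9 genes with its own of 27.1, so that the 11 genes read 1.34 log2 units higher than with its own value.

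COL1A1, the gene of the α1 chain of type I collagen and the main structural product of tendon cells, fell in the tendon 3 days after the muscle was injured, and it was the 1 gene of 22 that passed the test at an adjusted p under 0.05 (4.55% of the genes tested). The mean of 3D was below that of C in 19 genes and above it in 3, namely ADAMTS-4, TIMP-1 and SCX. The median difference over the 22 genes was -0.77 log2 units. No gene was higher in 3D past the threshold, and none was higher at an unadjusted limma p under 0.05. COL1A1, TIMP-2, MKX, DCN and FN, 5 genes, were lower at an unadjusted p under 0.05, which is 22.7% of those tested. In 2 genes, COL1A1 and TIMP-2, every measured 3D animal lay below every C animal, which is 9.09% of the genes. In RNA of whole tissue, fewer cells of a type and less RNA per cell cannot be told apart, and this holds for every level given here. Tests were limma's moderated test in a model of all 4 groups, with Benjamini-Hochberg adjustment over 22 genes and 6 pairs of groups.

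**Figure D1:**
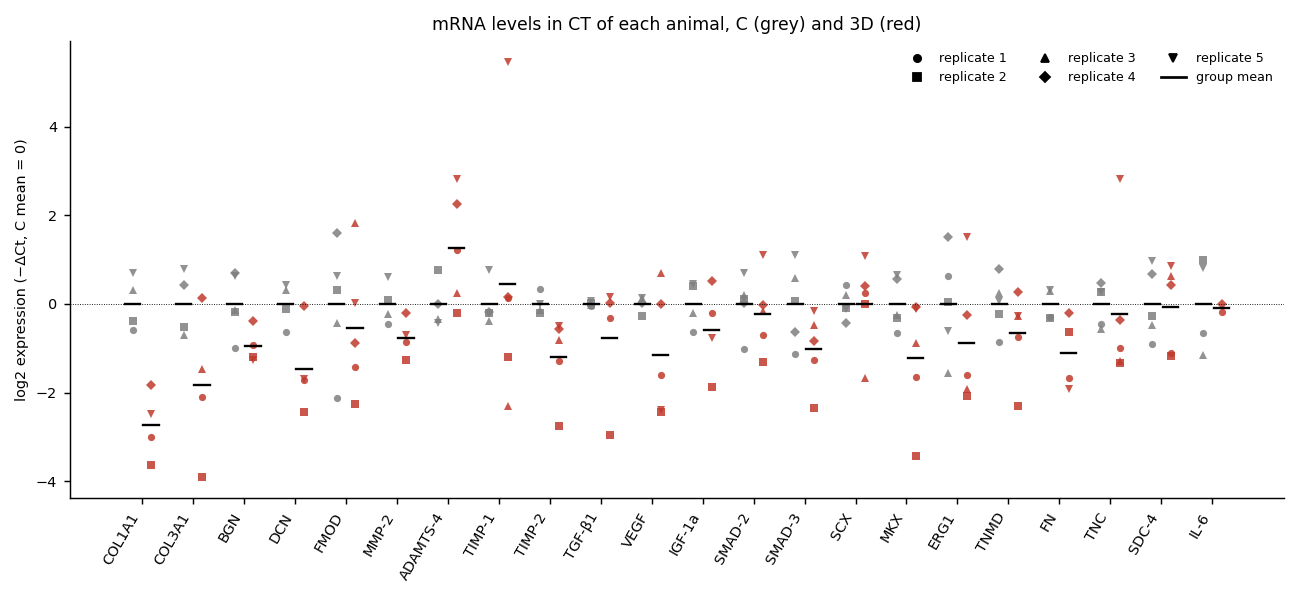
Log2 expression (vertical axis, −ΔCt with the C mean at 0) of the 22 target genes in each animal of C (grey) and 3D (red). Marker shapes give the replicate number within a group and bars the group means. COL1A1 and TIMP-2 have all red points below all grey ones, and replicate 5 of 3D lies far above the others in TIMP-1 and TNC.

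**Figure D2:**
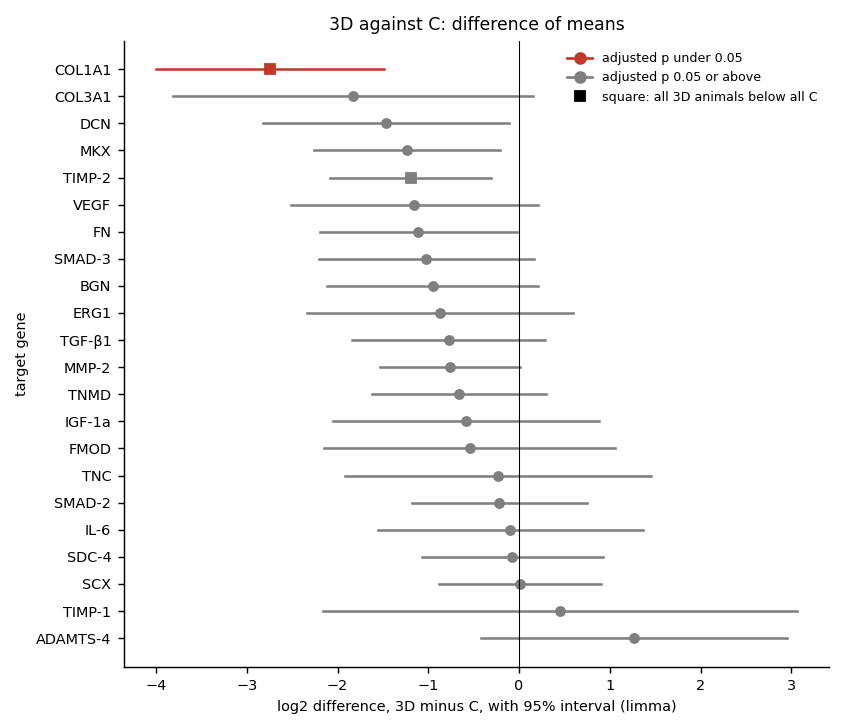
Difference of means on the log2 scale, 3D minus C (horizontal axis), with the 95% interval of the limma model, for each target gene. The interval of COL1A1 runs from -4.0 to -1.48, and squares mark the genes whose 3D animals were all below all C animals.

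Type I and type III collagen, the fibrillar collagens of the panel, were both lower in mean. COL1A1 read -3.00, -3.65, -1.83 and -2.49 in replicates 1, 2, 4 and 5 of 3D, where replicate 3 was left out as filled in. In C it read -0.60, -0.40, 0.31 and 0.69 in replicates 1, 2, 3 and 5. The least reduced 3D animal was thus more than 1 unit below the lowest C animal, and the 4 measured 3D animals were also the 4 lowest of the 20 animals of the series in which COL1A1 was measured. The difference was -2.74 log2 units with an SE of 0.61 and a 95% interval of -4.0 to -1.48, that is 6.69-fold lower in 3D (limma adjusted p = 0.0117, n = 4 and 4). The exact permutation p was 0.0286, the smallest that 4 against 4 animals allow. COL1A1 passed in 24 of 28 alternatives, and the call was lost with linear values (limma adjusted p = 0.362), the median RPLP0 Ct per animal (limma adjusted p = 0.0521), Dunn's procedure on ranks (adjusted p = 0.0857) and adjusted exact p-values (0.169). For replicate 5 of 3D that median was 28.5, the mean of the other 3D animals and not its own RPLP0 Ct. With the own RPLP0 of each animal the limma adjusted p of COL1A1 was 0.00708. The mean Ct itself was 30.6 in 3D and 25.6 in C, in the animals measured and not corrected for RPLP0. Those left out were replicate 4 of C, with a late RPLP0 Ct of 30.6, and replicate 3 of 3D, with an early one of 26.1. Replicate 2 of 3D, at 32.3, was kept, so that the gap between these means also holds a gap in RPLP0. Without replicate 2 of 3D the difference was -2.44 log2 units with an adjusted p of 0.0251. COL3A1, which encodes the collagen of early repair tissue, read -2.09, -3.91, -1.46 and 0.14 in replicates 1 to 4 of 3D, against -0.52, -0.70, 0.43 and 0.78 in replicates 2 to 5 of C. Its groups overlapped, since replicate 4 of 3D lay inside the range of C, and its difference of -1.83 with an SE of 0.95 did not pass (limma adjusted p = 0.275). Leaving out replicate 2 of 3D gave -1.14 for COL3A1, and leaving out replicate 4 of C as well gave -0.99.

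The small leucine rich proteoglycans bind collagen fibrils and limit their width. None of the 3 passed, all 3 means were below C, and their median difference of -0.95 stands beside -0.77 over all 22 genes. Decorin (DCN), the most abundant proteoglycan of tendon, read -1.71, -2.44, -0.04 and -1.69 in replicates 1, 2, 4 and 5 of 3D. In C it read -0.62, -0.12, 0.31 and 0.43 in replicates 1, 2, 3 and 5. In 3D, 3 of the 4 animals were below all of C and replicate 4 was within it, and the difference was -1.47 with an SE of 0.65 (limma adjusted p = 0.199). Biglycan (BGN) lay at -1.27 to -0.38 in 3D and at -0.99 to 0.69 in C, with 2 of 4 animals of 3D below all C animals. Fibromodulin (FMOD) spread in both groups, between -2.27 and 1.83 in 3D and between -2.12 and 1.59 in C, with no separation. Its value of 0.03 in replicate 5 of 3D was -1.31 with the own RPLP0 of that animal.

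Of the 4 matrix proteases and inhibitors none passed, 2 means were below C and 2 above, and their median was -0.16. TIMP-2, an inhibitor that also takes part in the activation of MMP-2, read -1.30, -2.76, -0.83, -0.57 and -0.51 in the 5 animals of 3D. It read 0.34, -0.21, -0.13 and 0.01 in replicates 1, 2, 3 and 5 of C. All 5 animals of 3D were below all 4 of C, with a narrow range in C and replicate 2 lowest in 3D. The difference was -1.19 with an SE of 0.43 and a 95% interval of -2.08 to -0.30, or 2.28-fold lower, and the adjusted limma p was 0.0786. The exact permutation p was 0.0238, before adjustment. TIMP-2 passed without replicate 4 of 3D, at -1.35 and an adjusted limma p of 0.0460, and it was -0.80 when replicate 2 of 3D was left out.

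MMP-2, a gelatinase, read -0.86, -1.27, -0.21 and -0.70 in replicates 1, 2, 4 and 5 of 3D and -0.46, 0.08, -0.23 and 0.61 in replicates 1, 2, 3 and 5 of C. In 3 of 4 animals of 3D the level was below all of C, and the difference of -0.76 with an SE of 0.37 did not pass (limma adjusted p = 0.239). ADAMTS-4, an aggrecanase that cleaves large proteoglycans, had the highest mean of the panel relative to C. It read 1.22, -0.22, 0.25, 2.26 and 2.83 in the 5 animals of 3D and lay between -0.42 and 0.77 in the 4 of C, so that 3 of 5 animals were above all of C. The difference of 1.27 with an SE of 0.81 did not pass (limma adjusted p = 0.374). In replicate 5 the value of 2.83 was one of those normalized with the mean RPLP0 of the other animals, and with its own it was 1.49, also above all of C. TIMP-1, an inhibitor with a wide range of targets, read 0.13, -1.21, -2.30, 0.17 and 5.47 in 3D and -0.20, -0.38, -0.19 and 0.76 in C. One animal set its mean, because the other 4 lay between -2.30 and 0.17 and the difference went from 0.45 to -0.80 without replicate 5. Its SD of 2.99 in 3D was the largest of the 22 genes. With its own RPLP0, replicate 5 read 4.13 for TIMP-1, also above all of C.

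Of the growth factors, none of 3 passed and all 3 means were below C, with a median of -0.78. TGF-β1, which induces collagen synthesis in tendon cells, read -0.33, -2.95, 0.02 and 0.15 in replicates 1, 2, 4 and 5 of 3D and between -0.05 and 0.06 in the 4 animals of C. In 3D, 3 of 4 animals stayed within 0.4 of the C mean while replicate 2 was far lower, and without it the difference of -0.78 came to -0.05. VEGF, the factor for blood vessel growth, split the 3D animals, with -1.60, -2.44 and -2.40 in replicates 1, 2 and 5 but 0.69 and -0.01 in replicates 3 and 4, against -0.28 to 0.14 in the 4 animals of C. Its difference was -1.15 with an SE of 0.66 (limma adjusted p = 0.303). IGF-1a, a growth factor isoform, lay at -1.87 to 0.52 in 3D and at -0.64 to 0.45 in C. The SMAD proteins carry the TGF-β signal to the nucleus, and neither gene passed. SMAD-3 read -1.27, -2.35, -0.48, -0.83 and -0.17 in 3D and -1.12, 0.07, 0.57, -0.63 and 1.10 in C, so that all 5 animals of 3D were below the C mean and 2 of them below all of C, or 3 with the own RPLP0 of replicate 5 (-1.51). Its difference was -1.02 with an SE of 0.57 (limma adjusted p = 0.300). SMAD-2 lay at -1.32 to 1.11 in 3D and at -1.02 to 0.70 in C, a difference of -0.22 with an SE of 0.47 that came to 0.0555 without replicate 2 of 3D. The 1.11 was that of replicate 5, and with its own RPLP0 it was -0.23. SMAD-3 over SMAD-2 within the animal, which needs no reference gene, was -0.34, -0.80, -0.09, -0.59 and -1.05 in 3D. In C it was 0.13, 0.20, 0.60, -0.43 and 0.64, so that the groups overlapped and 3 of 5 animals of 3D were below all of C. This ratio is among 210 computed after the values were seen, of which 15.2% had groups that did not overlap. In replicate 2 of 3D it rests on Ct values of 37.2 for SMAD-2 and 38.0 for SMAD-3.

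Of the 4 tendon lineage factors none passed, 3 means were below C, and their median of -0.77 equals that of all 22 genes. Mohawk (MKX), a homeobox factor needed for collagen fibril growth in mouse tendon, read -1.65, -3.43, -0.89, -0.08 and -0.11 in 3D and -0.65, -0.31, -0.25, 0.57 and 0.65 in C. Replicates 1, 2 and 3 of 3D were below all of C and replicates 4 and 5 were within it. The difference was -1.23 with an SE of 0.50 (limma adjusted p = 0.129). MKX of replicate 5 was one of the values normalized with the mean of the other animals, and with its own RPLP0 it was -1.45. With each animal's own RPLP0 the difference was -1.5 and passed (limma adjusted p = 0.0320), and without replicate 4 of 3D it was -1.52 and passed (limma adjusted p = 0.0460). Without replicate 2 of 3D it was -0.68 and did not pass.

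Scleraxis (SCX), the basic helix-loop-helix factor of early tendon cells, read 0.24, 0.01, -1.68, 0.40 and 1.07 in 3D and 0.43, -0.08, 0.21, -0.44 and -0.11 in C. Its means were 0.01 apart with a 95% interval of -0.88 to 0.90, and in replicate 2, where most genes were at their lowest, SCX was at the level of C. The 1.07 of replicate 5 was -0.27 with its own RPLP0. ERG1, paired in the deposited table with Egr1, an immediate early transcription factor, read -1.60, -2.08, -1.92, -0.26 and 1.5 in 3D. It ran from -1.56 to 1.51 in C, so that 3 animals of 3D were below all of C and the others within it. With its own RPLP0, replicate 5 read 0.16 for ERG1. Tenomodulin (TNMD), a late marker of tendon cells, lay at -2.30 to 0.27 in 3D and at -0.87 to 0.78 in C, and its difference was -0.66 with an SE of 0.47. Replicate 2 of 3D was below all C animals for TNMD, and so was replicate 5 once its own RPLP0 was used, at -1.61. With replicate 2 left out the TNMD difference was -0.25.

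The adhesion and matricellular genes did not pass either. Fibronectin (FN), an adhesive glycoprotein of provisional matrix, read -1.67, -0.64, -0.20 and -1.92 in replicates 1, 2, 4 and 5 of 3D and -0.29, -0.31, 0.29 and 0.32 in C. It is one of 2 genes, with BGN, in which replicate 5 and not replicate 2 was the lowest, and its difference was -1.11 with an SE of 0.52 (limma adjusted p = 0.237). Tenascin C (TNC), a matricellular protein that is induced by load in tendon, read -1.0, -1.32, -1.30, -0.36 and 2.82 in 3D and between -0.57 and 0.48 in C. In 3D, 3 animals were below all of C and replicate 5 was far above it, with 1.48 when its own RPLP0 was used. Syndecan 4 (SDC-4), a membrane proteoglycan that binds fibronectin, read -1.11, -1.18, 0.62, 0.44 and 0.85 in 3D, with 2 animals below all of C. The 0.85 of replicate 5 was -0.49 with its own RPLP0. The cytokine interleukin 6 (IL-6) was measured in replicates 1 and 4 of 3D only, at -0.19 and -0.01, within the range of -1.15 to 0.98 of the 4 measured C animals. In replicate 4 its ΔCt rested on an RPLP0 Ct of 27.3, against 27.9 for the other genes of that animal. The value of -0.01 was thus lower than it would be with 27.9.

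The promoters of 15 of the 22 genes were found in a table of RefSeq starts (GRCr8). They are shown for TIMP-2, whose groups did not overlap, for MKX, the tendon factor nearest to the threshold, and for ADAMTS-4, whose mean was highest, as the 250 bases before the start, 5′ to 3′ on the strand of the gene. Capitals mark a match, on either strand, to the E-box CANNTG that SCX type factors bind or to the SMAD type motif CAGAC. The EGR1 type motif GCGNGGGCG was also searched. The windows lie at chr10:104089215-104089464 on the minus strand, chr17:59851161-59851410 on the minus strand and chr13:86202761-86203010 on the plus strand.
TIMP-2: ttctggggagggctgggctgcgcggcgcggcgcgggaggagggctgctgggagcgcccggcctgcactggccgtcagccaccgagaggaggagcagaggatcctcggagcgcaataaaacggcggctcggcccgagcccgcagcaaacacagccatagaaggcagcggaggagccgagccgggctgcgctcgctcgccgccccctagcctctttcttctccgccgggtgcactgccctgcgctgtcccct
MKX: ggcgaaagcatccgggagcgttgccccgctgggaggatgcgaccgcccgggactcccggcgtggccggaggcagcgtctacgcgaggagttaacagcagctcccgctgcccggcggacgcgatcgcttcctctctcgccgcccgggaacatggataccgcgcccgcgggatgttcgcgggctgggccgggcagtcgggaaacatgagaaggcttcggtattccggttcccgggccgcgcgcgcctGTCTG
ADAMTS-4: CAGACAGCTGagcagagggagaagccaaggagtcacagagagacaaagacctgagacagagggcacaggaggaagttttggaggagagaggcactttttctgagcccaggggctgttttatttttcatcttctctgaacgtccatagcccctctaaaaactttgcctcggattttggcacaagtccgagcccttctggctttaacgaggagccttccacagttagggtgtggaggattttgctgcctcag

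The window of ADAMTS-4 held 1 E-box and 1 SMAD type match, which share a base, that of MKX held 1 SMAD type match on the other strand, and that of TIMP-2 held neither. A further start of MKX, whose window overlaps the one shown, held 2 SMAD type matches. Among all promoter windows listed, 65.5% held an E-box, 42.9% a SMAD type motif and 4.29% an EGR1 type motif. Of the 18 windows of the 15 genes found, 5, 7 and 0 did. Such short matches are a description of the letters and say nothing of binding.

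In the deposited values the 5 animals of 3D differed from each other more than those of C did. The SD was larger in 3D in 18 of 22 genes, with a median of 1.01 against 0.560 in C, and in 16 of 22 genes without replicate 2. These SDs include the shift of 1.34 log2 units in 11 genes of replicate 5, and were not computed with its own RPLP0. Replicate 2 was below all C animals in 19 of its 21 genes and the lowest of 3D in 17. Replicate 1 was below all C animals in 13 of 22 genes, replicate 3 in 7 of 14 and replicate 4 in 2 of 22. Replicate 5 was below all C animals in 8 of 20 genes, COL1A1 and FN among them, and above all of them in 6, ADAMTS-4, TIMP-1, TGF-β1, SMAD-2, SCX and TNC, of which all but TGF-β1 were normalized with the higher RPLP0 Ct. With its own RPLP0 for those genes, replicate 5 was below all C animals in 11 genes, SMAD-3, MKX and TNMD added, and above them in 4, ADAMTS-4, TIMP-1, TGF-β1 and TNC.

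The mean log2 expression over the genes measured in an animal was -0.99, -1.94, -0.56, -0.07 and 0.18 in replicates 1 to 5 of 3D. In C it was -0.56, -0.00, -0.20, 0.39 and 0.41. Replicates 1 and 2 of 3D were thus well below all of C, and replicate 3 was at the level of the lowest C animal (both -0.56). Replicates 4 and 5 were within the range of C. For replicate 5 this rests on the deposited values, in which 11 of 20 genes read 1.34 log2 units higher than with its own RPLP0. With its own RPLP0 its mean and that of 3D would be lower, by an amount not computed. As deposited, the mean of 3D was 0.69 lower than that of C, and 0.37 lower without replicate 2 of 3D. The animals do not share all genes, and replicate 3 of 3D and replicate 4 of C had 14 genes each. Over the 9 genes measured in all animals the difference was -0.54. In those 9 genes replicate 5 of 3D was normalized with the higher RPLP0 Ct. Without replicate 2 of 3D, 16 of 22 gene means were below C. The late RPLP0 Ct of replicate 2 went with its low panel, and its part in the result was not tested. In the series 6 other animals, replicate 4 of C among them, had an RPLP0 Ct between 29.2 and 30.6, and their panel means lay between -0.11 and 0.49, which is above the lowest animal of C. They had 1 or 2 values with a Ct above 35, against 12 in replicate 2 of 3D. No other animal had an RPLP0 Ct as late as its 32.3.

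**Figure D3:**
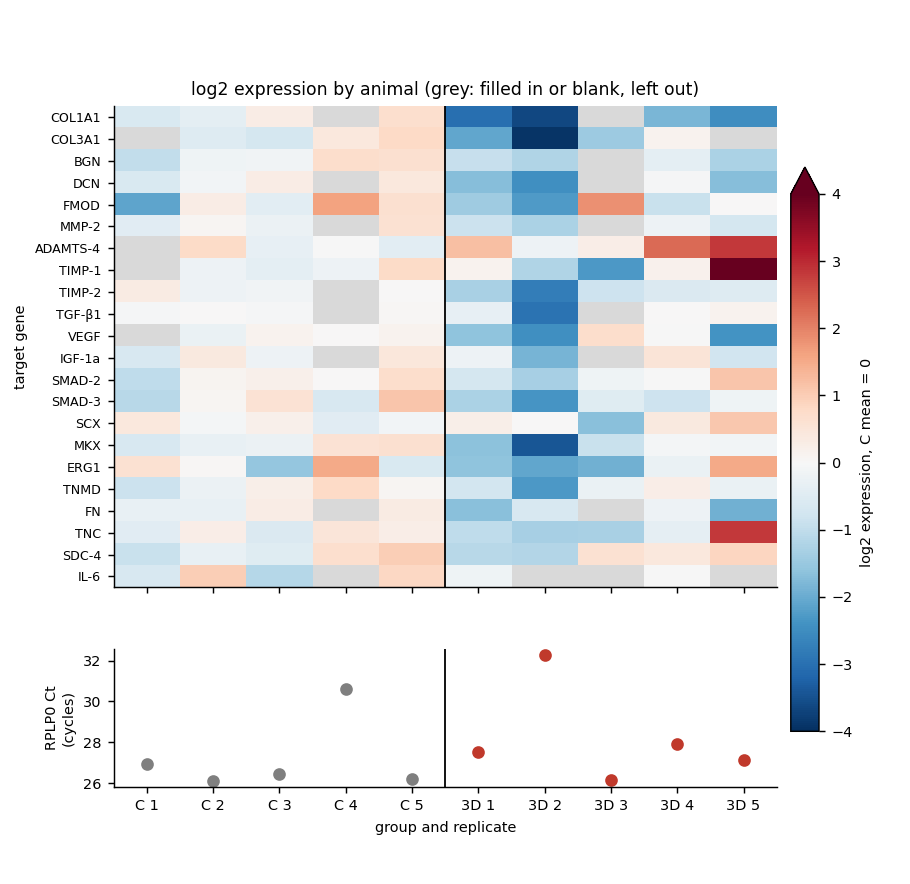
Log2 expression of the 22 target genes (rows, colour scale in log2 units, C mean at 0) in the 5 C and 5 3D animals (columns), above the RPLP0 Ct of each animal in cycles. Grey cells were filled in or blank and left out. Replicate 2 of 3D is the darkest blue column and has an RPLP0 Ct of 32.3.

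COL1A1 was also lower relative to most other genes of the same animal, a ratio of Ct values in which the reference gene has no part. These ratios were computed after the values were seen, for every pair of 21 genes with 3 or more animals in each group, and are given with no test. They take the amount of cDNA to be equal in all wells of an animal. COL1A1 over MMP-2 was -0.14, -0.37, 0.38 and 0.21 log2 units in replicates 1, 2, 4 and 5 of 3D. In C it was 1.86, 1.52, 2.54 and 2.08 in replicates 1, 2, 3 and 5, so that the groups were apart by more than 1 unit and the means differed by -1.98. Of 20 partner genes, 17 gave a ratio in which all 3D animals were below all C animals, and the exceptions were COL3A1, TIMP-2 and VEGF. Over all 210 pairs 15.2% were apart, and 7.89% of the 190 pairs without COL1A1. The mean ratio was lower in 3D for all 20 partners, by 1.09 for SMAD-3 at the least and by 4.13 for ADAMTS-4 at the most. Without replicate 2 of 3D, 18 of 19 ratios were apart.

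ADAMTS-4 stood at the other end. Its mean Ct over the animals measured, without RPLP0, was 32.2 in 3D and 32.3 in C, while every other gene was later in 3D. Its mean ratio was higher in 3D for all 20 partners, and in 11 of them all 3D animals were above all C animals. Over TIMP-2 it was -2.21, -2.19, -3.65, -1.90 and -2.73 in the 5 animals of 3D and -3.74, -4.94 and -5.16 in replicates 2, 3 and 5 of C. All 5 ratios of 3D were thus above the 3 of C, by a small margin in replicate 3. Without replicate 5 of 3D, whose normalization does not enter here, 13 of 20 ratios were apart. Since all pairs with one gene share its wells, the ratios are not independent of each other.

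**Figure D4:**
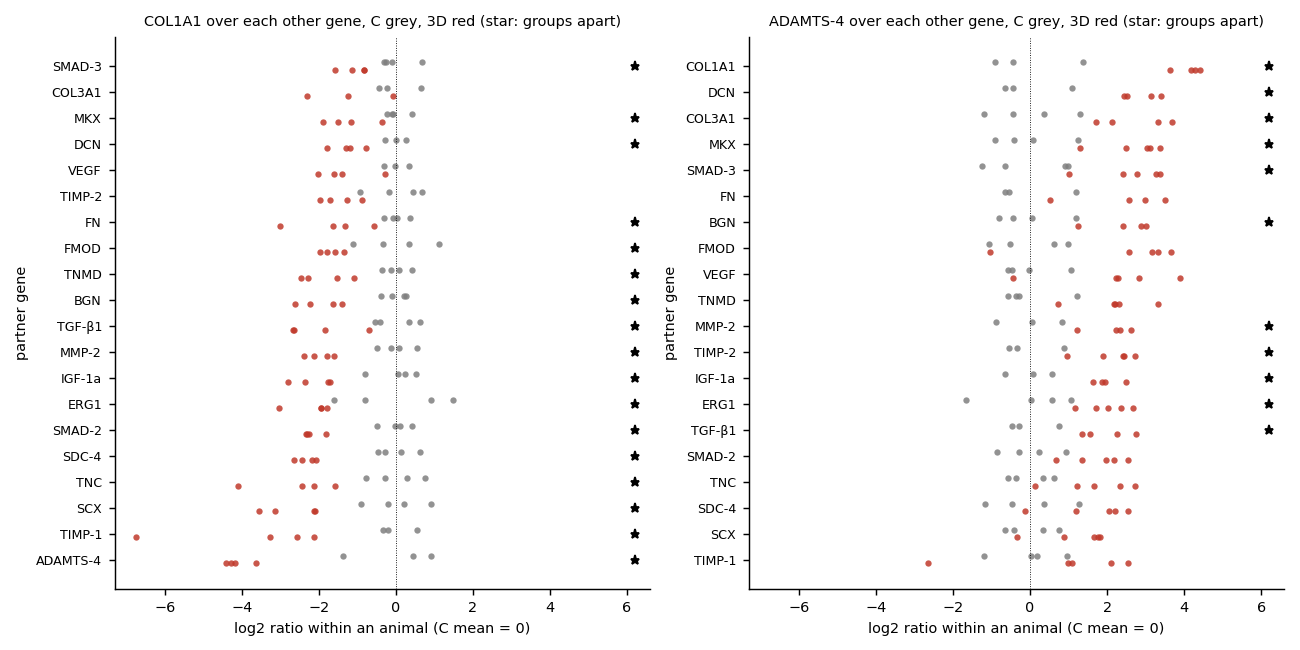
Log2 ratio of COL1A1 (left) and of ADAMTS-4 (right) to each other gene within the animal (horizontal axis, C mean at 0), C in grey and 3D in red, from Ct values with no reference gene. A star marks the ratios whose groups did not overlap, 17 of 20 for COL1A1 and 11 of 20 for ADAMTS-4.

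Set against the mean of the 3 other groups, 3D was lower in 6 of 22 genes (27.3%) and higher in none, with Benjamini-Hochberg adjustment over the 22 genes of this limma contrast. This comparison shares the 3D animals and the C animals with the one above. COL1A1 was lower by 2.71 log2 units (limma adjusted p = 0.000277). TIMP-2 was lower by 1.45 (limma adjusted p = 0.00240) and MKX by 1.57 (limma adjusted p = 0.00464). DCN and FN, at 1.90 and 1.51 lower, had a limma adjusted p of 0.00652 each, and MMP-2 was lower by 1.02 (limma adjusted p = 0.00890). The mean of 3D was the lowest of the 4 groups in 17 of 22 genes and the highest in TIMP-1 alone. The means of COL1A1 were 0.65 in 14D and -0.74 in 28D against -2.74 in 3D, and those of MKX were 0.27 and 0.75 against -1.23. The count was 10 with the own RPLP0 of each animal and 11 without replicate 5 of 3D, while it was 2 with the Ct alone and 2 where the target gene average served as the reference.

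**Figure D5:**
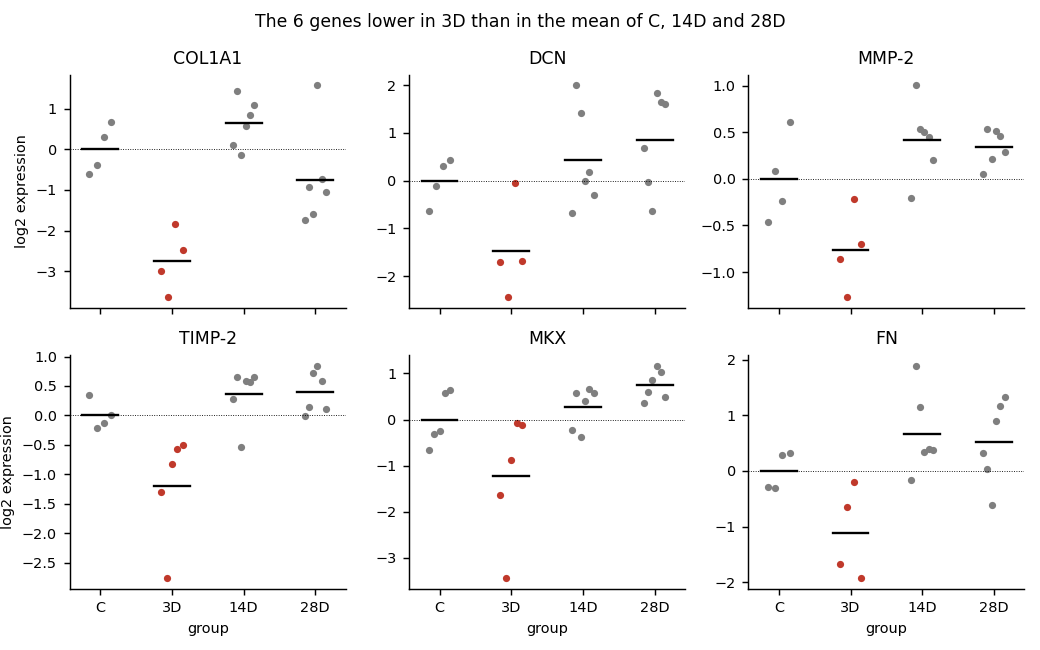
Log2 expression (vertical axis, C mean at 0, own scale in each panel) of the 6 genes that were lower in 3D than in the mean of C, 14D and 28D, with each animal as a point and bars at the group means. In COL1A1 the 4 measured animals of 3D (red) lie below all animals of the other groups.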

How the data were processed

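TaqMan qRT-PCR of CT gave relative mRNA levels for 22 target genes, with 1 value per gene and rat. Groups were taken from the sample labels. The authors state 6 animals per group, of which 5 in C and 5 in 3D were analysed here, and the assays for CTGF, GAPDH and ACTB were not used here. The deposited Ct values were not normalized and, per the methods, average technical duplicates. For the deposited ΔCt, a log2 scale with reversed sign, the authors subtracted the Ct of RPLP0. The deposited ratio (fold) to C was used as an alternative only.

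Expression on the log2 scale was minus ΔCt, centred on C. A value within 1e-06 of the average of the group's remaining rats was left out, as were blanks. For ΔCt the average was also taken without rats already marked as filled in. For DCN the Ct in C replicate 1 copies that of BGN and was left out of the alternatives based on Ct and of the gene ratios. The deposited ΔCt of that animal was kept in the main comparison, where it gave -0.62. Without C replicate 1 the DCN difference was -1.68. The RPLP0 Ct was Ct minus ΔCt. A single limma model of 4 groups was fitted (limma 3.58.1, R 4.3.3), with adjustment over 132 tests at 0.05, and with exact two-sided permutation tests of the absolute difference of means. The p-values rest on the spread between animals. Used Ct values ran from 20.8 to 38.5 with a median of 29.2. Sequencing depth does not apply, and precision is limited by the number of animals, 2 to 5 for a gene in a group.

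All 22 genes were named, with full values for genes that passed or whose groups did not overlap. The members, lists and tests were chosen with earlier results of these data known. The code was tested on simulated panels. All 22 symbols were found in the RefSeq table of GRCr8. The alternatives were other references, filled-in values kept, other tables, late or blank wells, linear values, other tests and adjustments, array weights, a block on replicate number and the omission of animals.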

Additional observations from a re-analysis of the deposited data

Results flagged for a closer look

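Of 47 sets of 4 or 5 animals tested for a single value far from the others by Dixon's criterion at the 95% level, 4 stood out, and about 1 in 20 such sets would do so by chance. TIMP-1 in C had its highest animal, replicate 5, at 0.76 log2 units while the other 3 lay between -0.38 and -0.19. TGF-β1 in 3D had its lowest animal, replicate 2, at -2.95, with the other 3 between -0.33 and 0.15. TNC in 3D had its highest animal, replicate 5, at 2.82, with the other 4 between -1.32 and -0.36. With the own RPLP0 of that animal its TNC was 1.48, and the gap fell to 0.657 of the range, under the critical value of 0.71. The RPLP0 Ct in C was highest in replicate 4 at 30.6, with the other 4 between 26.1 and 26.9.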

How the results depend on the processing

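Over 28 alternatives COL1A1 was lower in 3D in each and passed in 24. Some of these could not change its difference of -2.74, among them the setting for blank wells, the own RPLP0 and the omission of replicate 4 of C. Of the 4 that lost the call, the median RPLP0 Ct per animal gave a COL1A1 difference of -2.41 log2 units and adjusted exact p-values one of -2.74. With linear values the difference was -0.90 on the linear scale, which is not in log2 units. Dunn's procedure gave a rank z statistic of -2.45, which is not a difference of expression. Other adjusted p-values ran up to 0.0438, without replicate 1 of 3D. The count of genes passed lower, 1, was 3 with all deposited values, 0 with linear values, 0 with the median RPLP0, 2 with the own RPLP0, 2 with least squares, 0 with Dunn's procedure, 0 with adjusted exact p-values and 1 to 3 when single animals were left out (3 without replicate 4 of 3D). The count of genes with groups apart, 2, was 5 with the Ct alone, 1 with the mean of target genes, 1 with the median RPLP0 and 2 to 6 leaving out animals (6 without replicate 4 of 3D). The count against the other groups, 6, was 2 with the Ct alone, 2 with the mean of target genes, 10 with the own RPLP0 and 6 to 11 leaving out 3D animals. The RPLP0 difference ran from -0.0905 to 1.77 cycles leaving out animals. The panel mean difference was -0.27 without replicate 4 of C and replicate 2 of 3D, and -0.90 to -0.37 leaving out single animals.

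Of 616 combinations of gene and alternative 40 changed direction, in 9 genes, and in 13 genes none did. With the mean of target genes the differences of FMOD, IGF-1a, SMAD-2, TNMD, TNC, SDC-4 and IL-6 were 0.14, 0.0348, 0.47, 0.0236, 0.45, 0.61 and 0.35. With the Ct alone TIMP-1 and SCX were at -0.66 and -1.19. With Ct above 35 missing SMAD-2 and TNC were at 0.0555 and 0.0404. TIMP-1 was at -0.80 in the deposited fold table, and SCX at -0.26 with the own RPLP0. TNC was at 0.79 with linear values, on the linear scale and not in log2 units. IL-6 was at 1.4 with all deposited values and 0.22 with the median or own RPLP0. With Dunn's procedure the rank z statistic was -0.53 for TIMP-1 and 0.22 for IL-6, which are not log2 differences. Without replicate 4 of C and replicate 2 of 3D together FMOD, SMAD-2, SCX, TNC and SDC-4 were at 0.29, 0.0621, -0.10, 0.16 and 0.37. Leaving out single animals, TIMP-1 ran from -0.80 to 1.14, SMAD-2 from -0.55 to 0.0555, SCX from -0.26 to 0.43, TNC from -1.0 to 0.0404, SDC-4 from -0.31 to 0.20 and IL-6 from -0.48 to 0.23. The causes were not tested.

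The replicate number as a block gave COL1A1 -3.15 (limma adjusted p = 0.00287) and 1 gene passed, as without it. The numbers were not taken to pair the animals, since nothing ties them to a common source and same-numbered deviations correlated at 0.31, -0.06, 0.22, -0.00 and -0.05. The alternatives with the own RPLP0, without the 2 animals of late RPLP0 and of gene pairs were chosen after seeing the data. The SE of a difference was 0.37 to 1.26 log2 units with a median of 0.59, which limits what these animals can show. Array weights were estimated on the genes measured in all animals.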
